A study of Mus musculus with 24 samples.

Results

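MERVL is a mouse endogenous retrovirus whose internal, protein-coding part is annotated as MERVL-int and whose long terminal repeats (LTRs) are annotated as MT2_Mm. The 6 tables of the study list every annotated repeat copy as a locus of its own, under a number from the HOMER repeat annotation, and all rows of these families were taken by name. They were 2600 MERVL-int loci and 2667 MT2_Mm loci of 5147736 repeat loci in each table, plus a row for a merged MERVL feature (ENSMUS_MERVL), which is listed in every table but that of the sorted cells.

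As background, MERVL is silent in most embryonic stem cells (ESCs) and is transcribed in the 2-cell embryo and in the rare ESCs that resemble it. An intact provirus carries an MT2_Mm copy at each end, and the LTR acts as promoter for the body and for some neighbouring genes. The transcription factor Dux binds the LTR and switches it on, whereas TRIM28, SETDB1, KDM1A, CAF-1 and other chromatin regulators are known to keep it off.

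Total RNA of mouse ESCs was sequenced from 12 groups of 2 libraries in 6 comparisons, each with its own table. TMRM_high and TMRM_low were naive ESCs sorted for high or low mitochondrial membrane potential with the dye TMRM. siCtr and siMat2a were naive ESCs given a non-targeting siRNA or an siRNA pool against Mat2a, which encodes an enzyme that makes S-adenosylmethionine (SAM). H2O and ETO were ESCs given water or etomoxir, an inhibitor of fatty acid oxidation, and DMSO and MYCi were ESCs given the solvent or a MYC inhibitor. Het and EedKO were naive ESC lines of genotype Eed fl/- and Eed-/-, derived from blastocysts on fibroblast feeders, and Eed encodes a core subunit of the polycomb complex PRC2. In the cross that gave the blastocysts, the Cre that deletes the floxed Eed exon was driven by the Protamine promoter, which is active in male germ cells. LowSAM25uM and LowSAM50uM were cells of low membrane potential given SAM at 25 µM or 50 µM, with no untreated group in that table. The study names the libraries biological duplicates, so each p-value rests on 2 libraries a group.

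Values are FPKM (fragments per kilobase of a feature, scaled to the library's total) as deposited. The libraries held an estimated 35.1 to 90.2 M fragments. This estimate is rough, since for H2O replicate 2, at the low end, it gave 39.5 M over Ensembl genes alone. It gave 44.2 and 43.2 M for siCtr against 63.8 and 88.1 M for siMat2a. For H2O it gave 48.4 and 35.1 M against 66.8 and 75.0 M for ETO, and for DMSO 36.7 and 46.2 M against 76.7 and 71.6 M for MYCi. Fragments over Ensembl genes were not more in siMat2a, ETO or MYCi. The sorted cells had 65.3 and 47.3 M in TMRM_high and 58.2 and 42.2 M in TMRM_low. What these differences do to FPKM was not tested. Mat2a had 48.5 and 45.1 FPKM in siCtr and 13.5 and 9.44 in siMat2a, and Eed had 11.4 and 11.6 in Het and 2.72 and 2.78 in EedKO, which checks the labels. Fragments that mapped to several places were divided among them, so near-identical MERVL copies share signal and the value of a single locus is uncertain. In bulk RNA, more cells with MERVL RNA and more of it per cell cannot be told apart. Within a table, the median Ensembl gene differed between the groups by a log2 ratio of -0.81 in siMat2a, -0.84 in ETO, -0.79 in MYCi and -0.44 in LowSAM50uM, against 0.04 in TMRM_low and 0.06 in EedKO. Family changes are therefore also given relative to the median gene, that is, after median-of-ratios scaling over Ensembl genes.

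The study's quantitative PCR primers for the MERVL LTR are shown because the forward primer was used here to find annotated transcripts that carry LTR sequence.

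MERVL-LTR forward primer: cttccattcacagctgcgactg
MERVL-LTR reverse primer: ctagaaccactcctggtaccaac

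The forward primer was found in 90 of 141767 annotated mouse transcripts (GENCODE vM21) of 79 genes, and in 79 of these transcripts it lay in the first 100 bases. Among 32851 RefSeq promoter windows of 300 bases around a gene's start, 3 held it on the gene's strand and 1 on the other strand, 0.0122% of all windows. The 3 are Gm52608 on chr3:69854442-69854741 (plus strand), Gm33248 on chr7:129667253-129667552 (plus strand) and LOC115487209 on chr9:20619256-20619555 (minus strand), of build GRCm38.p6. The first is shown, from RefSeq, with the primer match in capitals, which begins 33 bases before the annotated start of the gene.

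Gm52608 promoter: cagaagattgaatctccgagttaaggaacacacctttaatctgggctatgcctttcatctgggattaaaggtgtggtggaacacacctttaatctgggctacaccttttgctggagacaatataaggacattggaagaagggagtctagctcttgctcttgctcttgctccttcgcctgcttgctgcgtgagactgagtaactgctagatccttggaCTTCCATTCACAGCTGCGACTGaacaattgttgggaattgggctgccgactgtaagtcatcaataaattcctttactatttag

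The tables number repeat copies, and copies of both families have numbers close to each other. Of the 2667 MT2_Mm loci, 1525 (57.2%) had a MERVL-int locus within 2 numbers, whereas MERVL-int made up 0.0505% of all repeat loci. The other 1142 MT2_Mm loci are called alone here. Of the MERVL-int loci, 1596 had an MT2_Mm locus within 2 numbers on 1 side, 17 on both sides and 987 on neither. These classes use no expression value, and no source used here states that the numbers follow the order of the genome. A MERVL-int locus with no MT2_Mm within 2 numbers can still be the middle piece of a longer run with an LTR at each end.

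The comparison of sorted cells asks whether ESCs of low membrane potential express the families. Both were higher in TMRM_low. The FPKM summed over all MERVL-int loci was 109 and 112 in the TMRM_high libraries and 1193 and 1065 in the TMRM_low libraries. The MT2_Mm sum was 126 and 134 in TMRM_high and 474 and 419 in TMRM_low. The groups lay far apart for both families. On the log2(mean FPKM + 0.01) scale, MERVL-int rose by 3.07 ± 0.09 (SE, n = 2 libraries a group; limma adjusted p = 0.00917) and MT2_Mm by 1.59 ± 0.09 (limma adjusted p = 0.0278). Of 1377 repeat families tested, 5 rose (0.363%), and by fold MERVL-int ranked 1 and MT2_Mm ranked 4. Relative to the median gene the rises were 3.04 and 1.56, and with scaling to the ERCC spike-in RNA 3.12 and 1.63. With 1 library fewer the folds stayed at 2.99 to 3.15 and 1.51 to 1.68, but the limma adjusted p of MERVL-int was 0.182, 0.287 and 0.0909 without TMRM_high replicate 1, TMRM_high replicate 2 and TMRM_low replicate 1. MT2_Mm lost its call without any of the 4 libraries, with a limma adjusted p of 0.116 to 0.287.

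**Figure D1:**
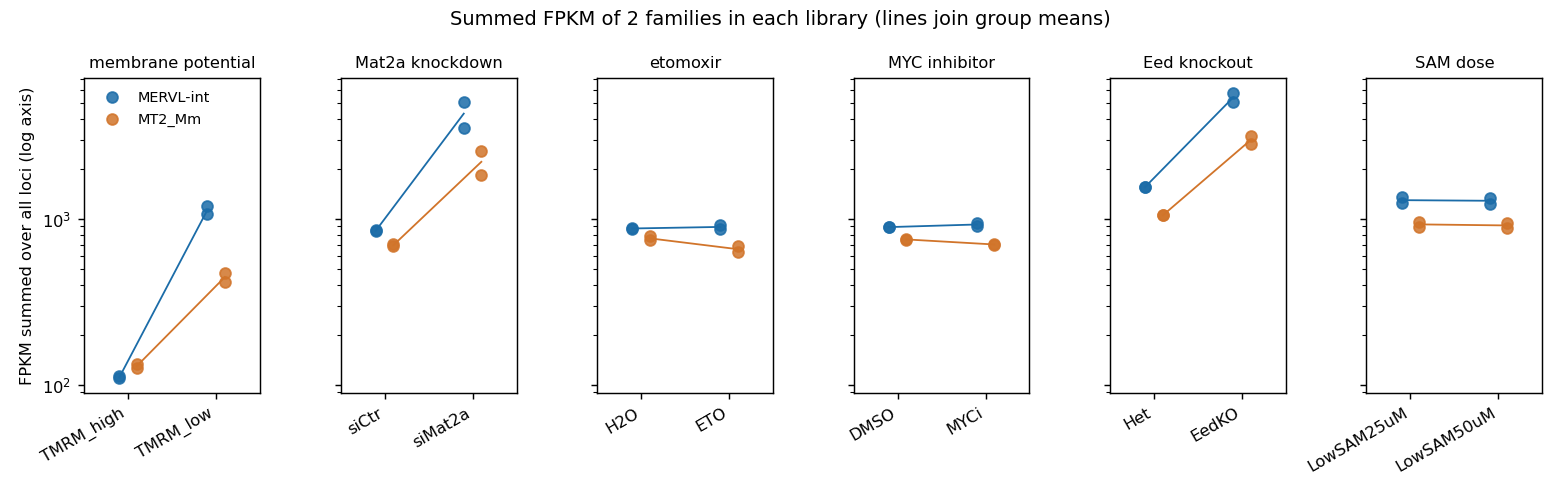
Summed FPKM of all MERVL-int and all MT2_Mm loci in each library (log axis), by comparison; points are libraries and lines join group means. Both sums are higher in TMRM_low, siMat2a and EedKO, from 109 and 112 to 1193 and 1065 for MERVL-int in the sorted cells, and lie closer together in the other 3 comparisons.

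Many loci carried the signal. In the TMRM_high libraries, 200 and 187 MERVL-int loci had at least 0.1 FPKM and 14 and 13 had at least 1. In TMRM_low the counts were 1601 and 1578 at 0.1 FPKM, and 305 and 258 at 1. The single highest locus held 2.84 and 4.31% of the MERVL-int sum in TMRM_high and 0.650 and 0.804% in TMRM_low. The number of loci that together held 50% of the sum was 96 and 78 in TMRM_high and 380 and 353 in TMRM_low. The 10 loci with the largest gain held 4.85% of the difference between the group sums, the 100 largest held 23.2%, and 355 loci were needed for 50%. Of the 100 highest MERVL-int loci of TMRM_high, 23 were among the 100 highest of TMRM_low.

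MT2_Mm started from a different shape. A single LTR held 21.5 and 24.04% of the family sum in the TMRM_high libraries, and 19 and 12 loci held 50%. In TMRM_low the highest locus held 6.91 and 6.83%, and 354 and 350 loci held 50%. That locus, HOMER1207499 in all 4 libraries, had 27.1 and 32.2 FPKM in TMRM_high and 32.8 and 28.6 in TMRM_low, so its groups overlapped. Without the 10 highest loci, the MT2_Mm log2 fold change was 2.11. The gain itself was spread, with 387 MT2_Mm loci holding 50% of the difference between the group sums.

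**Figure D2:**
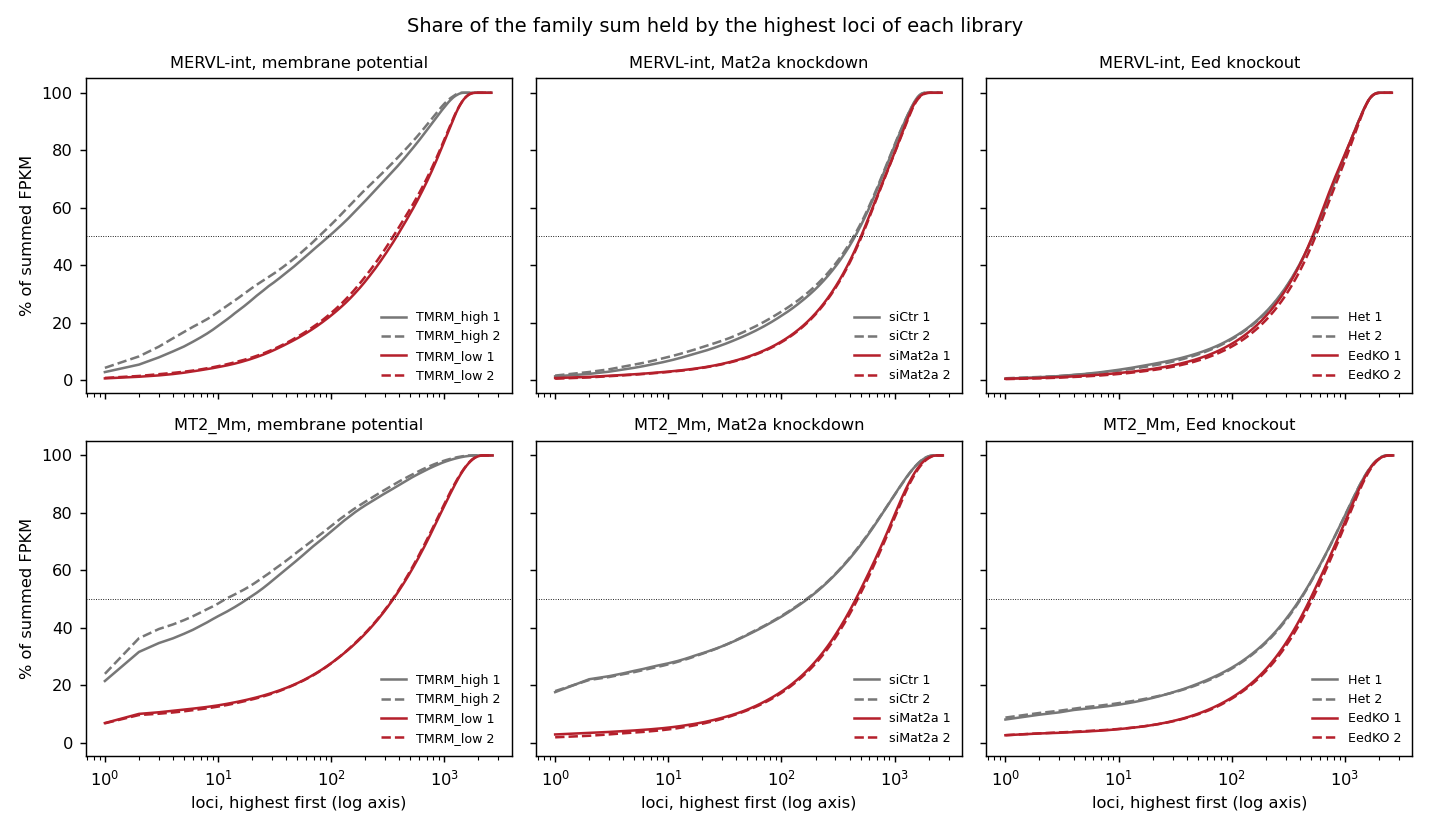
Percent of the family sum held by the highest loci (loci ranked within each library, log axis) for the sorted cells, the Mat2a knockdown and the Eed knockout; grey lines are the first group, red lines the second, and the dotted line marks 50%. The MT2_Mm curves of TMRM_high reach 50% at 19 and 12 loci and those of TMRM_low at 354 and 350.

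Locus by locus, both TMRM_low libraries lay above both TMRM_high libraries at 1721 of 2600 MERVL-int loci (66.2%) and at 1846 of 2667 MT2_Mm loci (69.2%), beside 4.05% of all features of the table and 14.2% of features above 0 in a library. Both lay below at 30 MERVL-int and 75 MT2_Mm loci, beside 3.97% of all features and 14% of those above 0. At 0 in all 4 libraries were 613 MERVL-int and 335 MT2_Mm loci. Single loci were tested with limma over the 718636 features with 0.1 FPKM in 2 libraries. At an adjusted p of 0.05 it called 0 loci of either family, and 0% of all features in either direction, the same for members and all other features. On simulated data this fit recovered 0 of 50 features planted at a log2 fold of 2, so its 0 calls do not show that no locus changed. With so few features planted, the simulation does not measure the power of the fit where many features change. At an unadjusted p under 0.05, 1379 of the 1557 MERVL-int loci tested were higher and 6 lower, as were 946 and 7 of the 1200 MT2_Mm loci tested, against 6.08% of all features higher and 6.23% lower. Loci enter this test through the group in which they are high, so these counts describe the loci tested and no others. After the 0 was seen, 5 other sets of features were tried, of which the 4 not adjusted over the members alone are given among the alternatives. They ranged from 0 calls to 1463 MERVL-int loci higher and 14 lower and 1059 MT2_Mm loci higher and 27 lower. The latter came from a fit of Ensembl genes and member loci that called 23.4% of its features higher and 6.04% lower. These shares include the members, which made up 1463 and 1059 of the 5571 features called higher.

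The 3 MERVL-int loci with the smallest p were not called. HOMER4082708 was at 0 in both TMRM_high libraries and at 4.22 and 4.39 FPKM in TMRM_low (limma adjusted p = 0.244). HOMER4279246 had 0.0611 and 0 FPKM in TMRM_high and 6.76 and 6.48 in TMRM_low. HOMER4673033 had 0.0611 and 0.0607 FPKM in TMRM_high and 4.94 and 4.19 in TMRM_low. Each was near 0 in TMRM_high, and no groups overlapped. The MT2_Mm locus next to HOMER4279246 in the numbering, HOMER4279247, was also among those of smallest p, with 0.00785 and 0 FPKM in TMRM_high and 1.31 and 1.17 in TMRM_low. MT2_Mm HOMER3915825, which has a MERVL-int neighbour too, had 0.00345 and 0.00212 FPKM in TMRM_high and 2.01 and 1.83 in TMRM_low. MT2_Mm HOMER3078437, which stands alone, lay the other way, with 1.45 and 1.31 FPKM in TMRM_high and 0 and 0 in TMRM_low.

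By mean level over the 4 libraries, MERVL-int HOMER1219482 was the highest locus, at 0.828 and 1.28 FPKM in TMRM_high and 7.75 and 8.56 in TMRM_low. HOMER2089543 had 2.76 and 2.46 FPKM in TMRM_high and 5.64 and 3.85 in TMRM_low. HOMER4543174 had 2.83 and 4.85 FPKM in TMRM_high and 3.34 and 2.47 in TMRM_low, and its groups overlapped. MT2_Mm HOMER4059044 had 3.88 and 4.30 FPKM in TMRM_high and 2.42 and 1.68 in TMRM_low, lower in both. The highest loci thus included some with more RNA in TMRM_low, some with less and some whose groups overlapped.

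The classes of loci by neighbour differed in the size of the change. MERVL-int loci with MT2_Mm on 1 side had a mean of 0.0448 and 0.0473 FPKM in TMRM_high and 0.696 and 0.621 in TMRM_low, a log2 ratio of 3.58. MERVL-int loci with no MT2_Mm had a mean of 0.0376 and 0.0367 FPKM in TMRM_high and 0.0769 and 0.0691 in TMRM_low, a log2 ratio of 0.82. Both TMRM_low libraries were above both TMRM_high libraries at 91.2% of the former and 25.5% of the latter. The 17 loci with MT2_Mm on both sides had a log2 ratio of 2.78, lower than with 1 side. The class with MT2_Mm on 1 side held 66.3% of the MERVL-int sum of TMRM_high and 93.1% of that of TMRM_low. MT2_Mm loci next to MERVL-int had a log2 ratio of 2.38 and those alone 0.50. Both TMRM_low libraries were above both TMRM_high libraries at 89.3% of the former and 42.4% of the latter. In TMRM_high the single locus HOMER1207499 held 27.1 and 32.2 of the 77.0 and 80.9 FPKM of the alone class. These are descriptions of classes whose copies share fragments, with no test.

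**Figure D3:**
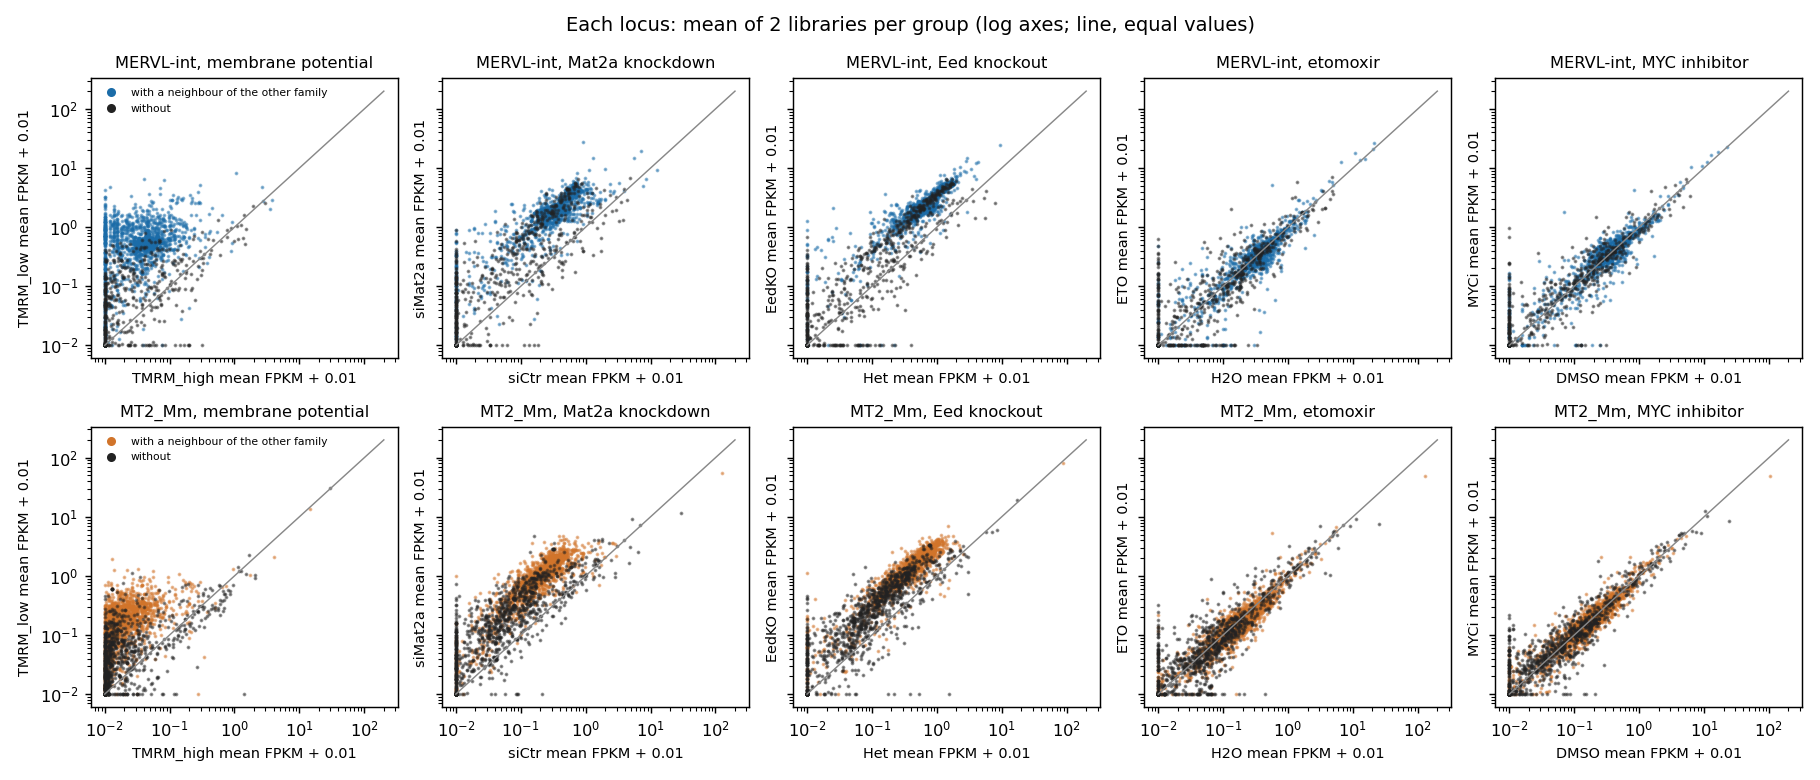
Each point is a locus, with its mean FPKM + 0.01 in the first group (horizontal) and the second (vertical, both log axes) in 5 comparisons; coloured points have a neighbour of the other family, black points have none, and the line marks equal values. In the sorted cells, the Mat2a knockdown and the Eed knockout most coloured points lie above the line, as for the 91.2% of MERVL-int loci with MT2_Mm on 1 side that were higher in both TMRM_low libraries.

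**Figure D4:**
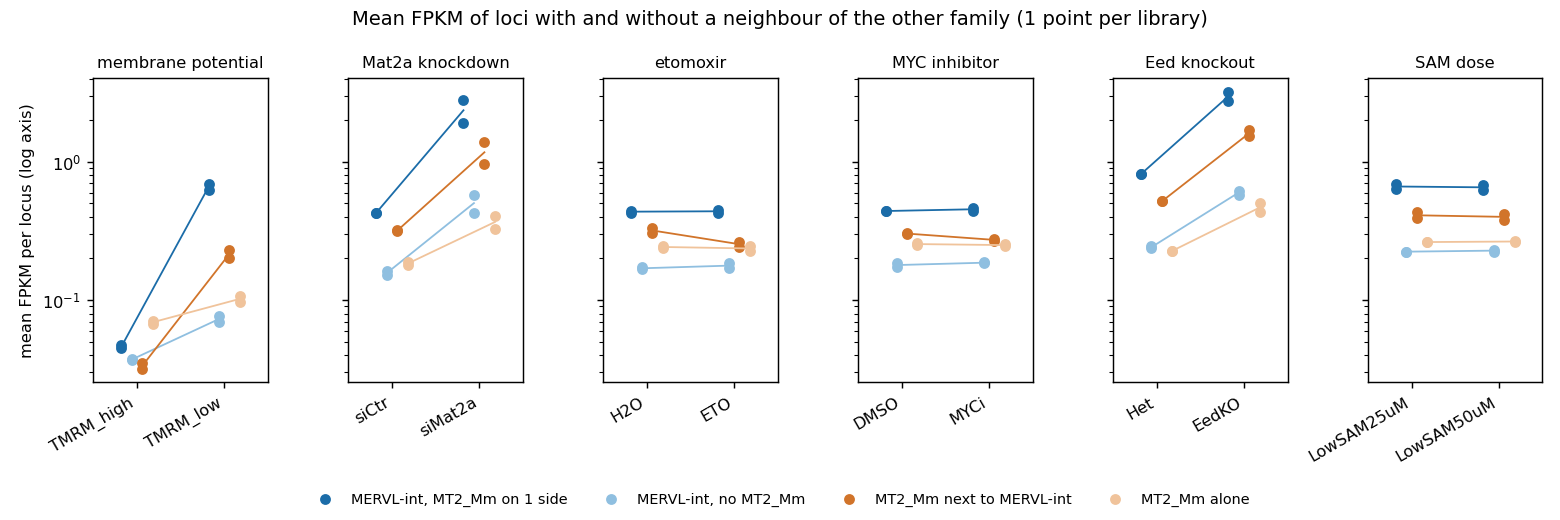
Mean FPKM per locus (log axis) in each library for 4 classes of loci, by comparison; points are libraries and lines join group means. In the sorted cells, MERVL-int loci with MT2_Mm on 1 side went from 0.0448 and 0.0473 to 0.696 and 0.621, and those without from 0.0376 and 0.0367 to 0.0769 and 0.0691.

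The knockdown of Mat2a asks whether the families change when less SAM can be made. MERVL-int summed to 855 and 843 FPKM in siCtr and to 5097 and 3519 in siMat2a. MT2_Mm summed to 704 and 685 in siCtr and to 2576 and 1839 in siMat2a. MERVL-int rose by 2.28 ± 0.21 on the log2 scale (SE, n = 2 libraries a group; limma adjusted p = 0.0439) and MT2_Mm by 1.61 ± 0.19 (limma adjusted p = 0.0439), beside 8.91% of 1447 families that rose. By fold they ranked 8 and 16. Relative to the median gene the rises were 3.08 and 2.40. Both calls were lost without siCtr replicate 1, siCtr replicate 2 or siMat2a replicate 2, with a limma adjusted p of 0.116, 0.115 and 0.0960 for MERVL-int and 0.116, 0.120 and 0.0960 for MT2_Mm. The merged row ENSMUS_MERVL had 0.00686 and 0.00908 FPKM in siCtr and 0.0605 and 0.0424 in siMat2a, too low to be tested.

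Here too many loci carried the signal, and levels are not compared with those of the sorted cells, since the tables were normalized separately. In the siCtr libraries 1617 and 1637 MERVL-int loci had at least 0.1 FPKM and 93 and 89 at least 1, and in siMat2a 1504 and 1399 loci had at least 1. The 100 loci with the largest gain held 13.9% of the MERVL-int difference, and 482 loci held 50%. For MT2_Mm, 170 and 167 loci held 50% of the sum in siCtr and 454 and 472 in siMat2a. Both siMat2a libraries lay above both siCtr libraries at 1866 MERVL-int loci (71.8%) and 2088 MT2_Mm loci (78.3%), beside 10.7% of all features and 24.6% of those above 0 in a library. Both lay below at 28 MERVL-int and 33 MT2_Mm loci, beside 4.74% and 10.9%. Over 1205613 features limma called 0 loci of either family and 0% of all features. At an unadjusted p under 0.05, 1619 of 1856 tested MERVL-int loci were higher and 5 lower, as were 1568 and 7 of 1977 tested MT2_Mm loci, against 15.1% of all features higher and 5.94% lower. Without 1 siCtr library the same fit called loci of both families higher, but the share of all features called was not counted. In the fit of Ensembl genes and member loci, 1712 MERVL-int loci were called higher and 16 lower, and 1770 MT2_Mm loci higher and 11 lower, against 23.4% of its features higher and 32.6% lower. These shares include the members, which made up 1712 and 1770 of the 6740 features called higher.

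The MERVL-int locus with the highest mean was HOMER968485, at 0.651 and 1.17 FPKM in siCtr and 38.9 and 15.7 in siMat2a. Its siMat2a libraries lay far from each other, and both lay above siCtr. HOMER1219482 had 6.48 and 7.93 FPKM in siCtr and 20.4 and 19.1 in siMat2a. HOMER2892968, the highest MERVL-int locus of siCtr, had 11.6 and 13.7 FPKM there and 11.2 and 7.64 in siMat2a. It lay lower on the deposited scale and higher, by a log2 ratio of 0.36, relative to the median gene.

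Of the MERVL-int loci with the smallest p, HOMER1316482 and HOMER1316484 belong to 1 run of numbers with an MT2_Mm locus at each end. HOMER1316482 had 0.525 and 0.585 FPKM in siCtr and 4.80 and 4.36 in siMat2a, and HOMER1316484 had 0.255 and 0.215 against 3.89 and 3.28 (limma adjusted p = 0.0916 for each, not called). HOMER1316172, the middle piece of another such run, had 0.251 and 0.223 FPKM in siCtr and 4.21 and 3.34 in siMat2a. Pieces of 1 run differed in level: MT2_Mm HOMER1316487, at the end of the first run, had 0.0148 and 0.0485 FPKM in siCtr and 0.472 and 0.538 in siMat2a. Among MT2_Mm loci, HOMER2821349 had 0.479 and 0.401 FPKM in siCtr and 5.01 and 4.28 in siMat2a. HOMER520101 had 0.463 and 0.396 against 4.47 and 3.49, and HOMER4580291 had 0.464 and 0.303 against 5.57 and 3.99. All 3 lie next to MERVL-int in the numbering, and no groups overlapped.

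MERVL-int loci with MT2_Mm on 1 side had a log2 ratio of class means of 2.44 in siMat2a, those with MT2_Mm on both sides 2.01 and those with none 1.62. MT2_Mm loci next to MERVL-int had 1.85 and those alone 0.96. In siCtr the single locus HOMER2667664 held 124 and 123 of the 489 and 480 FPKM of the class next to MERVL-int. Both siMat2a libraries were higher at 93.4% of MERVL-int loci with MT2_Mm on 1 side and 36.6% of those with none.

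The Eed knockout asks whether the families change without PRC2. MERVL-int summed to 1554 and 1562 FPKM in Het and to 5033 and 5758 in EedKO. MT2_Mm summed to 1050.5 and 1051 in Het and to 2831 and 3149 in EedKO. The Het libraries lay close together, and the groups were far apart. MERVL-int rose by 1.77 ± 0.09 on the log2 scale (SE, n = 2 libraries a group; limma adjusted p = 0.0175) and MT2_Mm by 1.48 ± 0.08 (limma adjusted p = 0.0175), beside 4.48% of 1450 families that rose. By fold they ranked 3 and 12. Relative to the median gene the rises were 1.71 and 1.42. Without any 1 of the 4 libraries neither family was called, with a limma adjusted p of 0.106 and 0.126 without Het replicates 1 and 2 and 0.0814 and 0.0962 without EedKO replicates 1 and 2, the same values for both families. The merged row ENSMUS_MERVL had 0.0584 and 0.0560 FPKM in Het and 0.423 and 0.405 in EedKO (limma adjusted p = 0.111).

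In Het, 701 and 706 MERVL-int loci had at least 1 FPKM, and in EedKO 1573 and 1622. In EedKO 517 and 550 MERVL-int loci held 50% of the sum, and 521 loci held 50% of the difference. Both EedKO libraries lay above both Het libraries at 1899 MERVL-int loci (73.0%) and 2163 MT2_Mm loci (81.1%), beside 9.86% of all features and 21% of those above 0 in a library. Both lay below at 48 MERVL-int and 45 MT2_Mm loci, beside 6.93% and 14.8%. Over 1368463 features limma called 0 loci of either family and 0% of all features. At an unadjusted p under 0.05, 1701 of 1928 tested MERVL-int loci were higher and 8 lower, as were 1691 and 11 of 2136 tested MT2_Mm loci, against 13% of all features higher and 7.82% lower. In the fit of Ensembl genes and member loci, 1733 MERVL-int loci were called higher and 12 lower, and 1834 MT2_Mm loci higher and 17 lower, against 33.7% of its features higher and 11.6% lower. These shares include the members, which made up 1733 and 1834 of the 10477 features called higher.

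HOMER968485 was the highest MERVL-int locus here as in the Mat2a table, at 8.06 and 10.6 FPKM in Het and 26.3 and 22.9 in EedKO. HOMER1219482 had 2.56 and 3.21 FPKM in Het and 14.6 and 15.5 in EedKO. HOMER3366150 had 4.57 and 4.04 FPKM in Het and 14.1 and 11.6 in EedKO. Both groups stood clear of each other at all 3 loci. Of those with the smallest p, HOMER4930614 had 1.75 and 1.91 FPKM in Het and 9.15 and 9.89 in EedKO, and HOMER833480 had 2.15 and 2.41 against 10.4 and 10.3 (limma adjusted p = 0.106 for each, not called). MT2_Mm HOMER147390 had 0.532 and 0.624 FPKM in Het and 4.47 and 4.18 in EedKO. MT2_Mm HOMER4085649 had 0.720 and 0.780 against 4.70 and 4.46, and HOMER1577854 had 0.254 and 0.291 against 2.82 and 3.16. These 3 LTRs lie next to MERVL-int in the numbering.

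In EedKO the log2 ratio of class means was 1.85 for MERVL-int with MT2_Mm on 1 side, 1.67 on both sides and 1.28 with none. It was 1.62 for MT2_Mm next to MERVL-int and 1.01 for MT2_Mm alone. Fibroblast markers differed in both directions in this table, with 5 of 10 higher in both EedKO libraries and 3 lower. Col1a1, a collagen gene, had 5.69 and 6.80 FPKM in Het and 0.650 and 0.681 in EedKO, whereas Pdgfrb, a growth factor receptor gene, had 0.680 and 0.594 against 3.89 and 4.36. The markers summed to 8.96 to 10.3 FPKM in Het and 10.1 to 11.4 in EedKO, with Col3a1, Dcn and Lum below 0.1 in all 4 libraries, and their part in the result was not tested.

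The comparisons of etomoxir and of the MYC inhibitor with their solvents ask whether induced quiescence goes with a change of the families. On the deposited scale neither family passed the test in either table. MERVL-int summed to 865 and 886 FPKM in H2O and 873 and 917 in ETO, and to 892 and 893 in DMSO and 906 and 945 in MYCi. Its log2 fold change was 0.03 ± 0.07 in ETO (SE, n = 2 libraries a group; limma adjusted p = 0.779) and 0.05 ± 0.03 in MYCi (limma adjusted p = 0.298). MT2_Mm had -0.21 ± 0.08 (limma adjusted p = 0.126) and -0.10 ± 0.02 (limma adjusted p = 0.0546). Without the 10 highest loci MT2_Mm had -0.020 in ETO and 0.057 in MYCi. The mean MT2_Mm sum went from 764 to 657 FPKM with etomoxir and from 752 to 701 with the MYC inhibitor. HOMER2667664 alone went from a mean of 129 to 49.2 FPKM and from 103 to 48.1. Among 1448 and 1446 families, 7.32% and 31.5% rose on the deposited scale. The call depends on the scale, since the median gene was lower in both groups. Relative to the median gene MERVL-int was higher by 0.85 in ETO (limma adjusted p = 0.00113) and 0.82 in MYCi (limma adjusted p = 4.03e-07). MT2_Mm was then higher by 0.60 and 0.67 (limma adjusted p = 0.0243 and 4.35e-05), so its direction turned. ENSMUS_MERVL had 0.0762 and 0.108 FPKM in H2O and 0.148 and 0.140 in ETO (limma adjusted p = 0.652), and 0.0419 and 0.0454 in DMSO and 0.0516 and 0.0502 in MYCi.

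At single loci of these tables the shares with groups that did not overlap lay closer to the background. Both ETO libraries lay above both H2O libraries at 332 MERVL-int loci (12.8%) and 378 MT2_Mm loci (14.2%), beside 10% of all features and 22.7% of those above 0 in a library. Both lay below at 429 (16.5%) and 590 (22.1%), beside 5.81% and 13.1%. Both MYCi libraries lay above both DMSO libraries at 432 MERVL-int loci (16.6%) and 455 MT2_Mm loci (17.1%), beside 8.93% and 22.8%, and below at 362 (13.9%) and 391 (14.7%), beside 5.23% and 13.3%. The limma fits called 0 loci of either family and 0% of all features. At an unadjusted p under 0.05, 31 of 1653 tested MERVL-int loci (1.88%) and 29 of 1489 tested MT2_Mm loci (1.95%) were higher in ETO. Lower were 14 and 9, against 14.7% of all features higher and 7.56% lower. In MYCi 19 of 1649 (1.15%) and 13 of 1521 (0.855%) were higher and 11 and 6 lower, against 11.6% and 6.77%. In the fit of Ensembl genes and member loci, 94 MERVL-int and 71 MT2_Mm loci of the same numbers tested were called higher in ETO. Lower were 75 and 55, against 12.5% of its features higher and 45.5% lower. In MYCi 80 and 58 were called higher and 50 and 43 lower, against 7.06% and 50.6%. Members thus passed less often than all features of these fits, in both directions.

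A few loci stood out by their p. MERVL-int HOMER2359353 had 0.821 and 0.844 FPKM in DMSO and 4.17 and 4.44 in MYCi (limma adjusted p = 0.119, not called). Its neighbour in the numbering, MT2_Mm HOMER2359352, had 0.593 and 0.826 FPKM in DMSO and 2.06 and 2.09 in MYCi. MERVL-int HOMER2050591, with no MT2_Mm within 2 numbers, had 1.63 and 1.12 FPKM in H2O and 4.74 and 6.77 in ETO. These lay higher with the inhibitor. In the other direction, MT2_Mm HOMER627279 had 4.65 and 4.22 FPKM in H2O and 1.18 and 0.861 in ETO, and HOMER4640369 had 3.63 and 3.91 against 1.13 and 1.05. Both of these LTRs stand alone.

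Loci at the top of the MERVL-int ranking in the solvent groups were mostly at the top in the treated groups too. HOMER2892968 had 18.8 and 23.6 FPKM in H2O and 28.3 and 25.1 in ETO, and 23.7 and 21.4 in DMSO and 21.1 and 24.8 in MYCi. HOMER1219482 had 20.9 and 20.5 FPKM in H2O and 20.8 and 20.7 in ETO. Of the 100 highest MERVL-int loci of the first group, 80 were among the 100 highest of ETO and 82 of MYCi. The same count was 23 in TMRM_low, 24 in siMat2a and 60 in EedKO. These counts were not tested.

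The SAM table compares 2 doses in cells of low membrane potential. MERVL-int summed to 1349.6 and 1244 FPKM at 25 µM and 1340.2 and 1232 at 50 µM, with a log2 fold change of -0.01 ± 0.08 (SE, n = 2 libraries a group; limma adjusted p = 0.971). MT2_Mm summed to 955 and 898 at 25 µM and 940.4 and 886 at 50 µM, with a log2 fold change of -0.02 ± 0.07 (limma adjusted p = 0.942), and 0% of families rose. Relative to the median gene the values were 0.42 and 0.41 (limma adjusted p = 0.576 for each), so the direction turned and neither was called. The libraries of both doses overlapped for both families. Both LowSAM50uM libraries lay above both LowSAM25uM libraries at 260 MERVL-int and 466 MT2_Mm loci (17.5% of the latter), beside 5.32% of all features and 13.8% of those above 0 in a library. Both lay below at 276 (10.6%) and 305 (11.4%), beside 4.56% and 11.8%. The limma fit called 0 loci and 0% of all features. At an unadjusted p under 0.05, 4 of 1756 tested MERVL-int and 1 of 1746 tested MT2_Mm loci were higher and 3 and 0 lower. Of all features, 3.96% were higher and 2.43% lower. In the fit of Ensembl genes and member loci, 17 and 2 of the same numbers were called higher and 11 and 0 lower, against 0.496% and 0.587%. HOMER2892968 was again the MERVL-int locus with the highest mean, at 22.0 and 17.5 FPKM at 25 µM and 22.2 and 14.6 at 50 µM. ENSMUS_MERVL had 0.0606 and 0.0657 FPKM at 25 µM and 0.0536 and 0.0472 at 50 µM. No comparison with cells that had no SAM can be made within this table.

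In every table the MT2_Mm locus with the highest level was 1 of a pair of LTRs. HOMER2667664, next to MERVL-int in the numbering, had 124 and 123 FPKM in siCtr, 103 and 154 in H2O, 106 and 98.8 in DMSO, 85.6 and 92.7 in Het and 12.7 and 16.6 in TMRM_high. It held 17.7 and 18.0% of the MT2_Mm sum of the siCtr libraries. While the family rose in siMat2a, this locus had 75.9 and 36.1 FPKM there. It had 49.6 and 48.9 FPKM in ETO and 41.2 and 54.9 in MYCi, below both control libraries in each table. In EedKO it had 75.9 and 84.7 FPKM, just below Het, and in TMRM_low 15.1 and 12.1, so that its groups overlapped. The MERVL-int locus beside it in the numbering, HOMER2667663, had 0.190 and 0.250 FPKM in siCtr and 1.24 and 1.04 in siMat2a, higher where the LTR lay lower. With the inhibitors its groups overlapped, at 0.207 and 0.150 FPKM in H2O and 0.134 and 0.463 in ETO, and 0.227 and 0.269 in DMSO and 0.560 and 0.266 in MYCi.

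HOMER1207499, which stands alone, had 31.5 and 26.4 FPKM in siCtr and 14.3 and 8.67 in siMat2a. It had 20.7 and 29.3 FPKM in H2O and 7.85 and 7.05 in ETO, and 22.8 and 25.4 in DMSO and 9.52 and 7.42 in MYCi. Both libraries were lower than both controls in each of these tables, but neither locus was called (for HOMER1207499, limma adjusted p = 0.117, 0.0866 and 0.119). Relative to the median gene both LTRs still had negative log2 ratios, of -0.43, -0.52 and -0.31 for HOMER2667664 and -0.56, -0.88 and -0.72 for HOMER1207499 in siMat2a, ETO and MYCi.

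**Figure D5:**
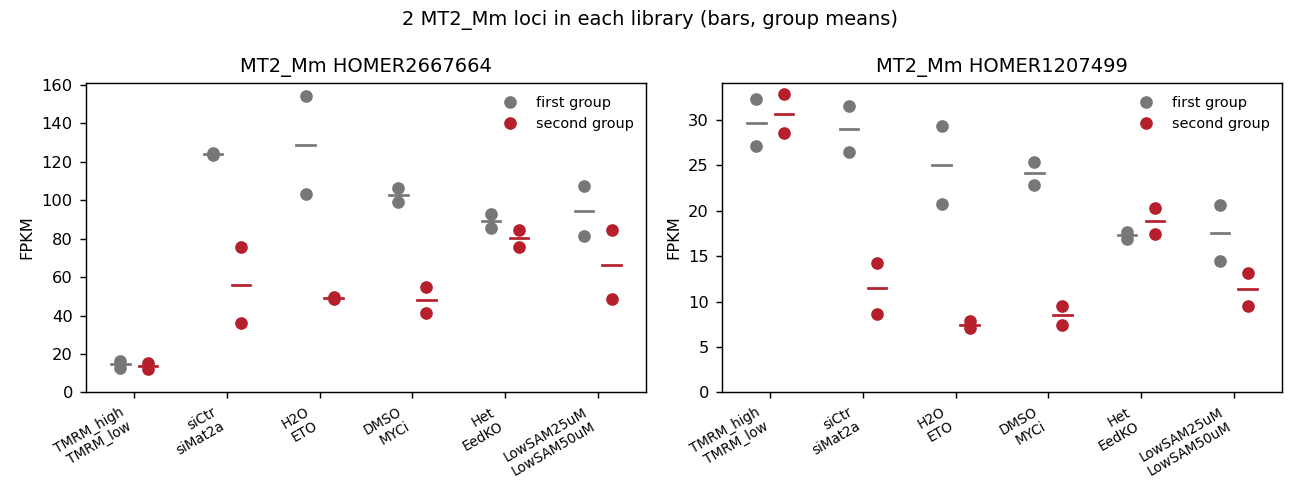
FPKM of the MT2_Mm loci HOMER2667664 and HOMER1207499 in each library of the 6 comparisons (grey, first group; red, second group; bars, group means). HOMER2667664 is at 124 and 123 in siCtr and at 75.9 and 36.1 in siMat2a, and at 85.6 and 92.7 in Het and 75.9 and 84.7 in EedKO.

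The order of loci was similar across tables, in control groups too. Over the 2600 MERVL-int loci, Spearman's rho of the group means was 0.95 between siMat2a and EedKO, 0.77 between TMRM_low and siMat2a and 0.72 between TMRM_low and EedKO. Between the control groups of the same pairs it was 0.88 for siCtr and Het, 0.77 for TMRM_high and siCtr and 0.68 for TMRM_high and Het. It was 0.94 between ETO and MYCi and 0.92 between siMat2a and LowSAM50uM, in whose tables MERVL-int did and did not pass the test. These values describe loci that share fragments, lengths and mappability, and carry no test. Of the 50 highest MERVL-int loci, siMat2a and EedKO shared 24 (48% of each list), and TMRM_low shared 4 (8%) with each of them. Their controls shared 13 (26%) for siCtr and Het, 25 (50%) for TMRM_high and siCtr and 14 (28%) for TMRM_high and Het. Among MT2_Mm loci the shared counts were 16 (32%) for siMat2a and EedKO, 18 (36%) for TMRM_low and siMat2a and 9 (18%) for TMRM_low and EedKO, against 25 (50%), 24 (48%) and 18 (36%) for their controls. All 3 treated lists of 50 held 3 MERVL-int and 7 MT2_Mm loci in common, and the 3 control lists 10 and 15. Only siMat2a and EedKO shared more of the highest MERVL-int loci than their controls did, and no pair did so for MT2_Mm. By the wider criterion, 1644 MERVL-int and 1728 MT2_Mm loci had both treated libraries above both controls in all 3 comparisons, and 588 and 341 in none of them. At 0 in all 24 libraries were 270 MERVL-int and 63 MT2_Mm loci.

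The family changes were compared with each other in 1 fit over the 5 tables with a control group, each normalized separately. MERVL-int rose more in the sorted cells than in the Mat2a knockdown, by 0.79 ± 0.18 on the log2 scale (SE; limma adjusted p = 0.00836), but relative to the median gene the difference was -0.038 (limma adjusted p = 0.834). It rose more than in the Eed knockout by 1.30 ± 0.18 (limma adjusted p = 0.000724), and by 1.33 relative to the median gene. Of 1448 families, 454 passed for the sorted cells minus the Mat2a knockdown and 139 for the sorted cells minus the Eed knockout. The size and order of these rises depended on the pseudocount. Control levels lay far apart, with a mean of 0.0420 and 0.0432 FPKM in TMRM_high and 0.598 and 0.601 in Het. With a pseudocount of 0.1, MERVL-int rose by 1.903 in the sorted cells, 2.021 in the Mat2a knockdown and 1.634 in the Eed knockout. The rise in the sorted cells was then below that in the Mat2a knockdown. Differences at that pseudocount were not tested. MT2_Mm differed by -0.02 ± 0.17 between the sorted cells and the Mat2a knockdown and by 0.11 ± 0.17 between the sorted cells and the Eed knockout (limma adjusted p = 0.932 and 0.726). Relative to the median gene the first of these was -0.84 (limma adjusted p = 0.00268), beside 1086 of 1449 families that passed. With a pseudocount of 0.1, MT2_Mm rose by 0.845 in the sorted cells, 1.348 in the Mat2a knockdown and 1.304 in the Eed knockout. Between ETO and MYCi the differences were -0.02 ± 0.18 for MERVL-int and -0.11 ± 0.17 for MT2_Mm (limma adjusted p = 0.988 and 0.935).

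Of the older relatives of MERVL, 9 families were read on the same scale. MERVL_2A-int, MT2A, MT2B, MT2B1, MT2B2 and MT2C_Mm, of the same ERVL group, had log2 fold changes of 0.17, 0.04, -0.04, 0.26, 0.01 and 0.05 in TMRM_low. ERVL-int had 0.02, MTA_Mm 0.18 and ORR1A0 0.16 there. None of the 9 relatives passed the test in TMRM_low. In siMat2a, ERVL-int passed with 0.57 (limma adjusted p = 0.0491), against 2.28 for MERVL-int. ERVL-int also passed in ETO with 0.44 and in MYCi with 0.45 (limma adjusted p = 0.0406 and 0.0250), where MERVL-int had 0.03 and 0.05 and did not pass. MERVL_2A-int and MT2B passed in MYCi, with 0.13 and -0.13 (limma adjusted p = 0.0418 and 0.0463). In EedKO none of the 9 passed, with MT2B1 at 0.26 (limma adjusted p = 0.0515).

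Genes with a transcript that holds the forward primer were read as well. Of these 79 genes, both treated libraries were higher than both controls for 55 in TMRM_low, 62 in siMat2a and 65 in EedKO, and lower for 5, 8 and 9, beside 4.05%, 10.7% and 9.86% of all features higher and 3.97%, 4.74% and 6.93% lower. In ETO 14 were higher and 30 lower, in MYCi 17 and 28, and in LowSAM50uM 6 and 19, beside 10%, 8.93% and 5.32% of all features higher and 5.81%, 5.23% and 4.56% lower. The median gene was lower in these 3 groups and in siMat2a. All features are mostly repeat loci. Among Ensembl genes and member loci fitted alone, 45.5%, 50.6% and 0.587% were called lower in ETO, MYCi and LowSAM50uM. In TMRM_low, siMat2a and EedKO, 23.4%, 23.4% and 33.7% of them were called higher. These shares rest on another criterion than the counts of genes. The limma fit called 0 of them in any table. Gm21761 had 0.177 and 0.137 FPKM in TMRM_high and 34.8 and 31.4 in TMRM_low, and Gm20767 had 0.0985 and 0.118 against 11.5 and 9.92. Both were chosen after their values were seen. Their fragments can overlap the LTR loci, so they are not a separate measurement.

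Known activators of MERVL differed between the comparisons. Zscan4c, of a gene cluster expressed in 2-cell-like ESCs, had 0.182 and 0.242 FPKM in TMRM_high and 30.2 and 26.3 in TMRM_low. It had 6.81 and 6.45 FPKM in siCtr and 91.1 and 50.8 in siMat2a, and 27.1 and 26.3 in Het and 65.3 and 71.1 in EedKO. In H2O it had 1.95 and 2.78 FPKM and in ETO 0.282 and 0.302. The gene was thus high in the treated group of the first 3 tables and low in ETO. Duxf3, an annotated copy of Dux, had 0 and 0.00778 FPKM in TMRM_high and 0.345 and 0.399 in TMRM_low. Dppa2 and Dppa4, which act upstream of Dux, were the pair that lay lower in EedKO: Dppa2 had 43.5 and 45.5 FPKM in Het and 37.9 and 35.2 in EedKO, and Dppa4 had 44.0 and 47.0 against 22.1 and 26.7. Copies of Zscan4 and Dux are near-identical, so their single values are uncertain. Of the 7 activators, both treated libraries were above both controls for 7 in TMRM_low, 4 in siMat2a and 5 in EedKO, and below for 0, 2 and 2, beside the same shares of all features as for the primer genes. All 7 lay below in ETO and in MYCi, where the median gene was lower too, and 3 in LowSAM50uM. The limma fit called 0 of the 7 in each table, with 5, 3 and 3 higher at an unadjusted p under 0.05 in TMRM_low, siMat2a and EedKO, beside 6.08%, 15.1% and 13% of all features. At the same threshold 2 were lower in EedKO, 6 in ETO and 6 in MYCi, beside 7.82%, 7.56% and 6.77% of all features. Among Ensembl genes and member loci fitted alone, 11.6%, 45.5% and 50.6% were called lower there.

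Of 14 known repressors, 4 had both TMRM_low libraries above both TMRM_high libraries and 2 below, with a median log2 fold change of 0.00 beside -0.04 over all features. Trim28, whose product recruits silencing complexes to retroviruses, had 288 and 325 FPKM in TMRM_high and 309 and 277 in TMRM_low. In EedKO 2 of the 14 were above and 9 below. Rif1, which binds chromatin and keeps MERVL off, had 94.0 and 96.6 FPKM in Het and 51.4 and 48.2 in EedKO, and Setdb1, a histone methyltransferase gene, had 29.7 and 31.3 against 18.3 and 20.6. All 14 lay below in siMat2a, ETO and MYCi, with median log2 fold changes of -1.08, -1.35 and -1.14, where the median gene was lower too. The limma fit called 0 of the 14 in each table. At an unadjusted p under 0.05, 10, 14 and 14 were lower in siMat2a, ETO and MYCi, 5 lower and 1 higher in EedKO, and 1 higher in TMRM_low. Of all features, 5.94% were lower at that threshold in siMat2a, 7.56% in ETO, 6.77% in MYCi and 7.82% in EedKO, and 13% were higher in EedKO and 6.08% in TMRM_low. The libraries of the treated group lay below both controls at 4.74%, 5.81% and 5.23% of all features in siMat2a, ETO and MYCi. Among Ensembl genes and member loci fitted alone, 32.6%, 45.5% and 50.6% were called lower there.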

How the data were processed

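Total RNA was depleted of rRNA, spiked with ERCC RNA and made into stranded libraries. Per the labels and the study's methods, the authors trimmed reads with Trim Galore and cutadapt, used TopHat2 2.1.1 for mapping to mm10 and SAMtools 1.9 for removing duplicates. featureCounts was run without strand, dividing multi-mapped fragments, on Ensembl genes, NONCODE transcripts and HOMER 4.10 repeats, and the deposited values are FPKM made with edgeR. Dividing fragments blurs near-identical loci, and FPKM weighs short loci more in a sum.

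From the deposited FPKM, single features were tested with limma 3.58.1 (R 4.3.3, intensity trend) on log2(FPKM + 0.1), over all features with 0.1 FPKM in at least 2 libraries of a table. Families were tested on log2(mean FPKM + 0.01), over families of at least 10 loci with a mean of at least 0.01. Tests were two-sided, with Benjamini-Hochberg adjustment at 0.05. Fold changes are on these scales and understate low loci. The authors' own lists used spike-in values, which here were used as a scaling only for the sorted cells. Where no locus passed, the 3 of smallest p were named, and in each table and family the 3 of highest mean. Members, gene lists and the neighbour rule were chosen with earlier results of these data known. Scripts were tested on simulated data with only 50 features planted at each log2 fold of 1, -1, 2 and -2. The fit over all features recovered 0 of them in every table, so its 0 calls do not show that no locus changed. The fit of Ensembl genes and member loci recovered 39, 31 and 30 of 50 at log2 fold 2 for TMRM_low, MYCi and EedKO. It recovered 0 for siMat2a, ETO and LowSAM50uM. In the data it called 23.4% of its features higher and 32.6% lower in siMat2a, so these recoveries do not measure its power where many features change. Depth was estimated from the value of 1 fragment in low genes. Over all features tested, libraries with the same replicate number did not deviate together (correlations of -0.0146 to 0.0199). Most of these features are repeat loci with few fragments, so this cannot tell whether the numbers pair the libraries.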

Additional observations from a re-analysis of the deposited data

Results flagged for a closer look

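In the joint fit of the 5 tables with a control group, 14 of the differences in family change between comparisons passed the test of the difference (limma adjusted p under 0.05) and are given on the log2 scale. For MERVL-int, the change in the sorted cells exceeded that in the Mat2a knockdown by 0.79, in ETO by 3.04, in MYCi by 3.02 and in the Eed knockout by 1.30. The change in the Mat2a knockdown exceeded that in ETO by 2.25 and in MYCi by 2.23, and ETO and MYCi differed from the Eed knockout by -1.74 and -1.72. For MT2_Mm, the change in the sorted cells exceeded that in ETO by 1.80 and in MYCi by 1.69, and that in the Mat2a knockdown exceeded them by 1.82 and 1.71. ETO and MYCi differed from the Eed knockout by -1.69 and -1.58 for MT2_Mm. Of 1448 families, 454, 438, 406 and 139 passed for the sorted cells minus the Mat2a knockdown, ETO, MYCi and the Eed knockout. The counts were 54 and 38 for the Mat2a knockdown minus ETO and MYCi, and 334 and 296 for ETO and MYCi minus the Eed knockout. Relative to the median gene, all but the first of the 14 differences still passed. The first, MERVL-int in the sorted cells minus the Mat2a knockdown, was -0.038. The other MERVL-int differences were then 2.19 and 2.22 for the sorted cells minus ETO and MYCi, 1.33 minus the Eed knockout, 2.23 and 2.26 for the Mat2a knockdown minus ETO and MYCi, and -0.86 and -0.89 for ETO and MYCi minus the Eed knockout. Those of MT2_Mm were 0.96 and 0.89, 1.80 and 1.73, and -0.82 and -0.75 in the same order. On that scale 1098, 1104 and 52 of 1449 families passed for the sorted cells minus ETO, MYCi and the Eed knockout. For the Mat2a knockdown minus ETO and MYCi 25 and 16 passed, and for ETO and MYCi minus the Eed knockout 1069 and 1059. None of the 14 differences was tested with another pseudocount, on which the size of the family changes depends.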

How the results depend on the processing

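The rises of both families in TMRM_low, siMat2a and EedKO kept their direction under every alternative run, but with 2 libraries a group the calls were narrow. With the replicate block the folds were unchanged, and neither family was called in TMRM_low, siMat2a or EedKO. The limma adjusted p was 0.0806 and 0.149 for MERVL-int (3.07) and MT2_Mm (1.59) in TMRM_low. It was 0.0578 and 0.0578 in siMat2a (2.28 and 1.61), and 0.0748 and 0.0748 in EedKO (1.77 and 1.48). Whether shared replicate numbers pair the libraries is not known. Without single libraries MERVL-int ranged from 2.99 to 3.15 in TMRM_low, 2.02 to 2.55 in siMat2a and 1.68 to 1.87 in EedKO, and MT2_Mm from 1.51 to 1.68, 1.37 to 1.85 and 1.41 to 1.56. The lone library left in a group was assumed to vary like the others. The calls were lost in each of these but MERVL-int without TMRM_low replicate 2 and both families without siMat2a replicate 1. In LowSAM50uM the range was -0.072 to 0.047 for MERVL-int and -0.064 to 0.023 for MT2_Mm.

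Median-of-ratios scaling gave 0.85 and 0.82 for MERVL-int in ETO and MYCi, now called, and turned MT2_Mm to 0.60 and 0.67. It turned the SAM values to 0.42 and 0.41, MERVL-int HOMER2892968 in siMat2a to 0.36 and HOMER4930614 in ETO to 0.75. Between comparisons it turned MERVL-int in TMRM_low minus siMat2a to -0.038 and ETO minus MYCi to 0.025. It brought siMat2a minus EedKO past the threshold at 1.37 for MERVL-int and 0.98 for MT2_Mm, beside 1043 of 1449 families. TMRM_low minus siMat2a passed at -0.84 for MT2_Mm, beside 1086 of 1449 families. Without the 10 highest loci MERVL-int in ETO was -0.00970, and MT2_Mm was -0.020 in ETO, 0.057 in MYCi and 0.036 in LowSAM50uM. The cause of these changes was not tested.

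The counts of called loci, 0 as reported, depend on which features share the fit. Of 5 sets of features tried after the 0 was seen, 1 was left out because it adjusts over the members alone, and the floor of 1 FPKM gave 0 with and without genes. With genes and member loci only, MERVL-int counts higher and lower were 1463 and 14 in TMRM_low, 1712 and 16 in siMat2a, 94 and 75 in ETO, 80 and 50 in MYCi, 1733 and 12 in EedKO and 17 and 11 in LowSAM50uM. Those of MT2_Mm were 1059 and 27, 1770 and 11, 71 and 55, 58 and 43, 1834 and 17, and 2 and 0. The shares of features given above for this fit include the members in every table. With a floor of 5 FPKM the counts were 3 MERVL-int higher in TMRM_low, 11 MERVL-int higher and 3 MT2_Mm lower in siMat2a, 2 MERVL-int higher, 1 MT2_Mm higher and 3 lower in ETO, 1 MERVL-int and 2 MT2_Mm lower in MYCi, and 107 MERVL-int higher, 1 lower and 1 MT2_Mm higher in EedKO. With a pseudocount of 0.01 they were 963 MERVL-int higher and 1 lower and 341 MT2_Mm higher and 2 lower in siMat2a, and 10, 2, 6 and 4 in ETO. Without single libraries the counts ranged from 0 to 9 MERVL-int higher in TMRM_low, from 0 to 1266 MERVL-int and 601 MT2_Mm higher in siMat2a, and in ETO from 0 to 5 and 4 higher and 1 and 3 lower. In all, 442 of the other values for families, counts and differences and 735 of those for named loci stayed on their side of the threshold, and 101 for named loci passed it newly. Depth limits low loci, whose values rest on few fragments, many of them divided among copies.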
